A study of Mus musculus with 14 samples.

Results

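The genes described here are the adult alpha globins Hba-a1 and Hba-a2, the adult beta globins Hbb-bs and Hbb-bt, and Alas2. They were chosen by symbol, and all 5 were found among the 18735 genes with a value in at least 1 library. All 5 passed the filter that left 16580 genes for testing. RNA came from the hippocampus of C57BL6 mice aged 30 days. The mice were wild type or heterozygous for the bGeo allele of Kmt2d (KMT2D+/bGeo), which encodes a histone H3K4 methyltransferase. By gavage they received methylcellulose alone or with TAK-418 at 1 mg/kg/day. TAK-418 inhibits LSD1, an enzyme that removes methyl groups from histone H3K4. The mice were 2 weeks old when dosing started, and it went on for 2 weeks. There were 3 wild types and 3 mutants on vehicle, and 5 wild types and 3 mutants on TAK-418, each mouse one library. The labels do not say whether the animals were perfused, and they do not say which exons the bGeo allele removes.

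Hemoglobin is a tetramer of alpha and beta globin chains, each holding a heme group. Red cell precursors and reticulocytes make nearly all of it, and reticulocytes carry globin mRNA into the circulation. ALAS2 is the erythroid form of aminolevulinate synthase and catalyses the first step of heme synthesis in red cell precursors, whereas ALAS1 serves that step in other tissues. In brain tissue these transcripts are commonly taken as a sign of blood in the vessels, and low globin expression in neurons and glia has also been described. In whole tissue, fewer cells of a type and less RNA per cell cannot be told apart.

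The paired globin genes have nearly the same coding sequence, which bears on every value given for a single copy. On GRCm38, Hba-a1 (ENSMUSG00000069919.7) lies at chr11:32283511-32284465 and Hba-a2 (ENSMUSG00000069917.7) at chr11:32296489-32297298, both on the plus strand with 3 exons. Hbb-bs (ENSMUSG00000052305.6) lies at chr7:103826534-103828096 and Hbb-bt (ENSMUSG00000073940.3) at chr7:103812524-103813996, both on the minus strand with 3 exons. Alas2 (ENSMUSG00000025270.13) lies at chrX:150547375-150570638 on the plus strand with 11 exons. The coding sequences of Hba-a1 and Hba-a2, 426 bases each without the stop codon, differ at 1 base, C381T. Those of Hbb-bs and Hbb-bt, 441 bases each, also differ at 1 base, C417T. Positions are counted from 1 at the A of the start codon, with the base of Hba-a1 or Hbb-bs first. Neither difference changes an amino acid, and both lie in the last coding exon. The 126 coding bases of that exon are shown for the 4 genes, 5′ to 3′ in the sense of the mRNA and from GENCODE M21, with the differing base in capitals.
Hba-a1, chr11:32284263-32284388: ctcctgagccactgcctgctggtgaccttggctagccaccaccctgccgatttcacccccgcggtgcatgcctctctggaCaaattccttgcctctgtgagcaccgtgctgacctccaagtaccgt
Hba-a2, chr11:32297080-32297205: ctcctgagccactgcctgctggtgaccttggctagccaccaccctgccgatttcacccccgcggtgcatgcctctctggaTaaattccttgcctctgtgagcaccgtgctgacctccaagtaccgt
Hbb-bs, chr7:103826668-103826793: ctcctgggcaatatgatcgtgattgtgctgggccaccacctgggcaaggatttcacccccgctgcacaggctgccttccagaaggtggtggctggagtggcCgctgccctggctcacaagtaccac
Hbb-bt, chr7:103812659-103812784: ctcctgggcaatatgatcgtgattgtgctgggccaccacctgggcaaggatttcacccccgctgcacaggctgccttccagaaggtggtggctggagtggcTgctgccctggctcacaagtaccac

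Of the 377 stretches of 50 bases in the Hba-a1 coding sequence, 331 (87.8%) also occur in Hba-a2. For Hbb-bs, 367 of 392 such stretches (93.6%) also occur in Hbb-bt. With stretches of 100 bases the shares are 85.9% and 92.7%. No 50-base stretch is shared between Hba-a1 and Hbb-bs. How much of a pair's signal is placed on each copy thus depends on how reads common to both were assigned, and the split between copies is uncertain throughout.

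The promoters are shown because the pairs differ there in how alike they are. The 120 bases before each RefSeq start (GRCm38.p6) were searched on both strands for 4 motifs. They are the CCAAT box, the CACCC box of globin genes, the TATA-type word TATAA, and the GATA-type word AGATAA, and matches are in capitals.
Hba-a1, chr11:32283552-32283671, plus strand: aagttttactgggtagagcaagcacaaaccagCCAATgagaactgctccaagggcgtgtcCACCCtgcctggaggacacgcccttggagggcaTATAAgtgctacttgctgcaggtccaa
Hba-a2, chr11:32296372-32296491, plus strand: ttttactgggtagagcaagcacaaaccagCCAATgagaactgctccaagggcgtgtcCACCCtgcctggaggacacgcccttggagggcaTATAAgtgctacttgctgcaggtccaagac
Hbb-bs, chr7:103827929-103828048, minus strand: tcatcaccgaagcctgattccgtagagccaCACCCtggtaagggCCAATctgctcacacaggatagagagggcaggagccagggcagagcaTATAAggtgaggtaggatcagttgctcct
Hbb-bt, chr7:103813924-103814043, minus strand: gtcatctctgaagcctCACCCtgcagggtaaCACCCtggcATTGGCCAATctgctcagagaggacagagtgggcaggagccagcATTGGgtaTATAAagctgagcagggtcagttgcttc
Alas2, chrX:150547297-150547416, plus strand: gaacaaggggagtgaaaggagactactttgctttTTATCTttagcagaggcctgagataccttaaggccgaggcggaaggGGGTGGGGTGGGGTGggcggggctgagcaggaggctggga

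The alpha promoters are identical over all 117 bases that overlap after a shift of 3 bases, which reflects where RefSeq places the starts. The beta promoters match at 88 of 119 bases (73.9%). All 4 globin windows hold CCAAT as well as CACCC motifs and TATAA. Hbb-bt holds 3 matches to CCAAT, counting both strands, and a pair of them abut. The Alas2 window holds CACCC 3 times and AGATAA once, on the opposite strand, and neither CCAAT nor TATAA. Over 32851 promoter windows of the same length, CCAAT was found in 21.3%, CACCC in 31.7%, TATAA in 11.8% and AGATAA in 4.36%. A match describes letters in these windows and shows no binding.

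Wild type TAK-418 replicate 1 was the deepest library, at a relative depth of 168 M (M for mega), and the other 13 lay between 35.1 M and 59.9 M, as read from the steps between low abundance values. Kmt2d, taken over the whole gene, averaged 13.99 ± 0.233 (SD, n = 3) in vehicle wild types, 11.9 ± 2.14 (n = 3) in vehicle mutants, 15.2 ± 2.37 (n = 5) in treated wild types and 12.4 ± 2.73 (n = 3) in treated mutants. Vehicle mutant replicate 3 (14.4) and treated mutant replicate 1 (14.6) lay above all 3 vehicle wild types, so this level does not separate the genotypes, and groups are named as labelled. The 8 hippocampal neuron markers were listed in all 14 libraries. Summed choroid plexus markers, of which Ttr is the most abundant, were 5121 in vehicle mutant replicate 1 and 6547 in vehicle wild type replicate 3, against 20.1 to 927 in the other libraries. Both libraries enter the fits, and results without them are given where they differ.

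Globin transcripts were abundant in every library. Values are each library's assembled abundance, a measure per transcript length, summed over a gene's transcripts and scaled between libraries, and are called scaled abundance. Hba-a1, an alpha chain gene, was at 170, 241 and 103 in the 3 vehicle wild types and at 288, 254 and 123 in the 3 vehicle mutants. In treated wild types Hba-a1 ranged from 143 to 211 with a median of 168 over 5 libraries, the single values being 155, 168, 171, 211 and 143. In treated mutants Hba-a1 was at 197, 118 and 175. Vehicle mutants 1 and 2 were the highest of all libraries, vehicle mutant 3 was near the bottom, and every group overlapped every other. Among the 5 genes, the ranges of 2 groups were apart only for Hba-a2 between vehicle and treated mutants and for Alas2 between vehicle and treated wild types. In the other 4 pairs of groups all 5 genes overlapped. There the share of all genes tested whose ranges do not overlap was 8.9% for vehicle wild types and vehicle mutants, 9.53% for vehicle wild types and treated mutants, 6.24% for vehicle mutants and treated wild types, and 4.6% for treated wild types and treated mutants.

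Hbb-bs, a beta chain gene, was at 167, 165 and 45.4 in vehicle wild types and at 230, 187 and 126 in vehicle mutants. In treated wild types Hbb-bs was at 58.0, 156, 140, 135 and 144, and in treated mutants at 172, 105 and 118. The lowest values belonged to vehicle wild type 3 and to treated wild type 1, the most deeply sequenced library. In 6 libraries the Hbb-bt value includes models that join both beta copies, as given below. Hbb-bt was at 140, 185 and 60.4 in vehicle wild types and at 199, 203 and 106 in vehicle mutants. In treated wild types Hbb-bt was at 116, 129, 125, 151 and 128, and in treated mutants at 149, 87.1 and 165. The beta genes thus showed the same high and low vehicle libraries as Hba-a1, again with overlapping groups.

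**Figure D1:**
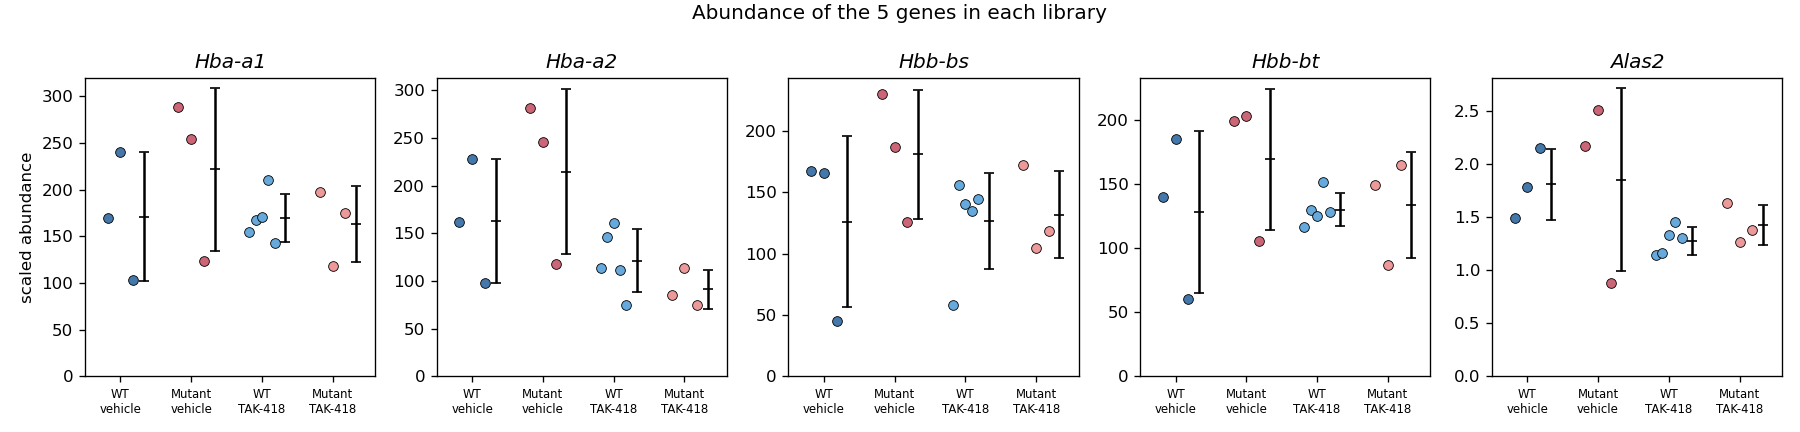
Scaled abundance (vertical axis, from 0) of each of the 5 genes in each library, by group; points are libraries and the bar beside them is the mean ± SD (n = 3, 3, 5 and 3). Vehicle groups spread most: Hba-a1 ran from 123 to 288 in vehicle mutants and from 143 to 211 in treated wild types.

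The globin genes varied between mice of one group more than most genes at their level. The SD of log2 values around the group means was 0.46 for Hba-a1, 0.51 for Hba-a2, 0.66 for Hbb-bs and 0.50 for Hbb-bt. The median over all 16580 genes tested was 0.17. Among genes within 2-fold of the member's mean level, Hba-a1 stood at the 92.5th percentile of this spread and Hbb-bs at the 95.5th. By mean level, Hba-a1 ranked 429, Hba-a2 573, Hbb-bs 598 and Hbb-bt 600 of 16580 genes. In this order their means were 180 ± 53.7, 144 ± 65.3, 139 ± 48.5 and 139 ± 40.8 (SD, n = 14), and no neighbours in that order differed beyond their spread. By abundance times length, a measure described with Hba-a2, the order was Hba-a2, Hba-a1, Hbb-bs and Hbb-bt, at ranks 409, 523, 538 and 767. That measure is divided by the longest annotated transcript, 699 bases for Hba-a1 and 554 for Hba-a2. The order of the alpha copies depends on this divisor. Alas2, at 1.55 ± 0.459 (SD, n = 14), ranked 13050. An assembled abundance rests on a median of 4001 implied fragments a library for Hba-a1 and 125 for Alas2, with a range of 31 to 342 for Alas2, so single Alas2 values are much less precise.

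No member passed the test in any of 8 contrasts. The test was limma with Benjamini-Hochberg adjustment over all 16580 genes at 0.05. All genes called made up 0% of those tested for the drug in wild types, 0.00603% for the drug in mutants, 0% for genotype under vehicle, 0.0121% for genotype under TAK-418, 0.00603% for the interaction and 0.0121% for the mean drug effect. They made up 0.0241% for treated mutants against vehicle wild types and 0% for vehicle mutants against treated wild types. At an unadjusted p under 0.05, limma counted 1 of 5 members, always Hba-a2, in the drug effect in mutants, the mean drug effect, and vehicle mutants against treated wild types. The share of all genes at that threshold was 4.4%, 8.29% and 9.24% in these contrasts. In the other 5 contrasts it counted 0 members, where the share of all genes was 8.42% for the drug in wild types, 5.48% for genotype under vehicle, 4.95% for genotype under TAK-418, 4.43% for the interaction and 5.37% for treated mutants set against vehicle wild types.

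The vehicle comparison asks what the Kmt2d allele does without the drug. All 4 globin genes had higher means in vehicle mutants, by log2 0.37 ± 0.34 (SE) for Hba-a1, 0.39 ± 0.38 for Hba-a2, 0.70 ± 0.50 for Hbb-bs and 0.48 ± 0.38 for Hbb-bt, and none passed. The adjusted p of limma with Benjamini-Hochberg lay between 0.998 and 1 for the 5 members. The median over the members was 0.39, and over all genes 0.00. With 1 library left out at a time the difference stayed above 0 for each globin gene, at 0.044 to 0.74 for Hba-a1, 0.065 to 0.77 for Hba-a2, 0.078 to 1.01 for Hbb-bs and 0.015 to 0.81 for Hbb-bt. Without vehicle mutant 1 and vehicle wild type 3 together, a pair left out after seeing the data, the log2 differences became -0.19, -0.18, -0.12 and -0.13 in the same order of genes. By summed globins, these were the highest vehicle mutant (998) and the lowest vehicle wild type (307). Leaving them out had to lower the differences, so the change of sign is no separate test.

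Under TAK-418 the genotypes lay close together for Hba-a1, Hbb-bs and Hbb-bt, and less so for Hba-a2. The treated mutants differed from treated wild types by log2 -0.07 ± 0.31 (SE) for Hba-a1, 0.10 ± 0.44 for Hbb-bs and -0.01 ± 0.34 for Hbb-bt. The drug effect in wild types was 0.06 ± 0.31 for Hba-a1, 0.15 ± 0.44 for Hbb-bs and 0.16 ± 0.34 for Hbb-bt. Without vehicle wild type 3, the mouse with the lowest globins, these became -0.26, -0.47 and -0.31. The drug effect in mutants was -0.38 ± 0.34 for Hba-a1, -0.44 ± 0.50 for Hbb-bs and -0.33 ± 0.38 for Hbb-bt. The interaction, which asks whether the drug effect differs by genotype, was -0.44 ± 0.46 for Hba-a1 and -0.59 ± 0.66 for Hbb-bs, with a limma adjusted p (Benjamini-Hochberg) of 0.976 for both. Hba-a2, whose assembled transcript differed in length between libraries as given below, had a drug effect in wild types of -0.39 ± 0.34. With 1 library left out at a time, its genotype difference under TAK-418 was -0.55 to -0.25 and its interaction -1.15 to -0.45. These contrasts rest on 3 to 5 mice a group, and their standard errors limit the size of difference that could be detected.

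**Figure D2:**
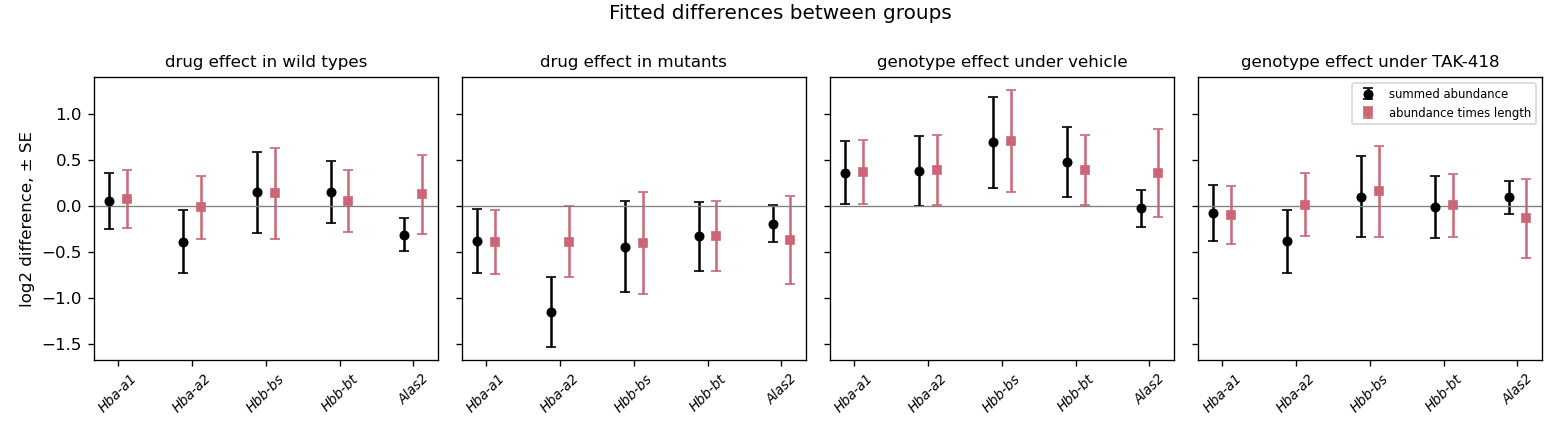
Fitted log2 differences (vertical axis, ± SE) of the 5 genes in 4 contrasts, from summed abundance (black circles) and from abundance times transcript length (red squares). The Hba-a2 difference in mutants moves from -1.15 to -0.39 between the measures, and no other globin gene moves by as much.

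Hba-a2 gave the lowest unadjusted p of any member in the 8 contrasts as reported. Its drug difference in mutants moved more between the measures than that of any other globin gene. Hba-a2 was at 162, 228 and 98.1 in vehicle wild types and at 281, 246 and 117 in vehicle mutants. In treated wild types Hba-a2 was at 113, 146, 160, 112 and 74.9, and in treated mutants at 85.0, 114 and 74.8. All 3 treated mutants lay below all 3 vehicle mutants, as the groups of 8.18% of all genes tested do not overlap there. The log2 difference was -1.15 ± 0.38 (SE, unadjusted p = 0.0107), with a limma adjusted p of 0.896 by Benjamini-Hochberg and 0.408 to 1 over the alternatives. Hba-a1, which shares all but 1 coding base, differed by -0.38 in the same contrast.

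The assembled Hba-a2 transcript was 752 to 1179 bases long in 4 libraries and 436 to 550 bases in the other 10. All 4 were among the 8 TAK-418 libraries (wild types 4 and 5, mutants 1 and 3) and none was among the 6 vehicle libraries. The split, at 700 bases, was set after seeing the models. The share of all genes split in this way was not computed, and a relation to the drug was not tested. In 3 of them the transcript began at position 32287007 and included exons of Hbq1b, a theta globin gene upstream, and in treated mutant 3 its first exon began at position 32295787. An abundance per length falls when the same reads are spread over a longer transcript. The ratio of Hba-a2 to Hba-a1 was 0.427 to 0.531 in these 4 libraries and 0.730 to 0.975 in the other 10. Each abundance was also multiplied by its transcript's length and divided by the gene's longest annotated transcript, a measure chosen after seeing these models. It is called abundance times length. The divisor was 699 bases for Hba-a1 and 554 for Hba-a2, which raises their ratio alike in every library. On this measure the ratio was 1.03 to 1.42 in the 4 libraries and 0.781 to 1.35 in the other 10. The groups then overlapped in all 42 pairs examined by abundance times length. A model joined to Hbq1b counts wholly under Hba-a2 there, and the part of model length in the Hba-a2 difference was not tested. On that measure the Hba-a2 difference in mutants was -0.39 ± 0.38 (limma adjusted p = 1 by Benjamini-Hochberg), next to -0.39 ± 0.35 for Hba-a1.

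**Figure D3:**
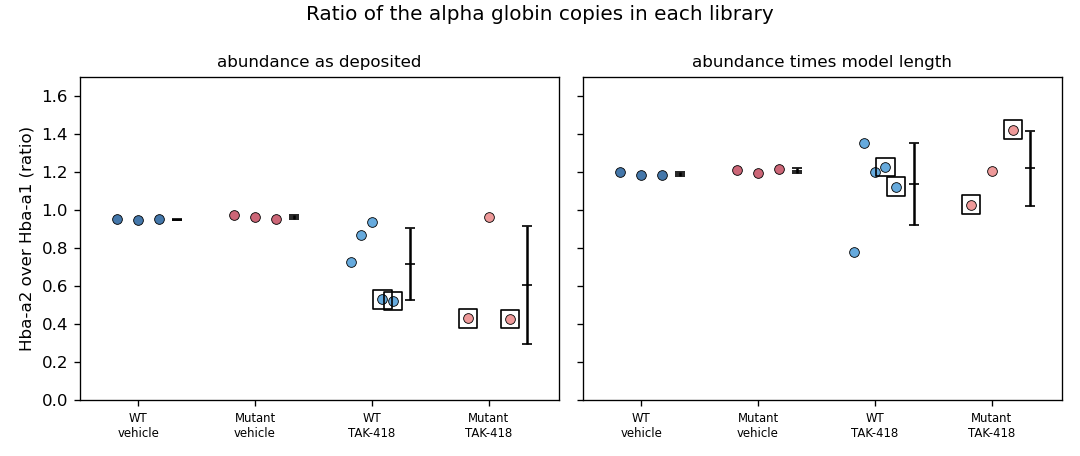
Ratio of Hba-a2 to Hba-a1 (vertical axis, from 0) in each library by group, as deposited (left) and with abundance times transcript length (right). On the right, values are divided by each gene's longest annotated transcript, which raises the ratio alike in every library. Squares mark the 4 libraries whose Hba-a2 transcript is over 700 bases, a cut set after seeing the models, and bars are mean ± SD. As deposited, the marked libraries lie at 0.427 to 0.531, below all others; with length they lie at 1.03 to 1.42, within or above the range of the rest.

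The copies of each pair were also summed. Since abundance is per length, a sum still depends in part on which copy's transcript took the reads when the lengths differ. Summed Hba-a1 and Hba-a2 were 331, 469 and 201 in vehicle wild types and 569, 500 and 241 in vehicle mutants. They were 268, 314, 331, 323 and 218 in treated wild types and 282, 232 and 250 in treated mutants. The drug difference in mutants was log2 -0.69 ± 0.33 (SE) as deposited (limma, adjusted p = 1) and -0.38 ± 0.36 with length. Summed Hbb-bs and Hbb-bt were 307, 350 and 106 in vehicle wild types and 429, 389 and 232 in vehicle mutants. They were 174, 285, 265, 286 and 273 in treated wild types and 322, 192 and 283 in treated mutants, with a drug difference in mutants of -0.38 ± 0.41. Models that joined Hbb-bs to Hbb-bt were present in 6 libraries, and 1 library, the deepest, held a model joining Hba-a1 to Hba-a2. The abundance of joined models was counted under Hbb-bt and Hba-a1. In vehicle wild type 3 and treated mutant 3 the whole Hbb-bt value came from joined models. The ratio of summed beta to summed alpha copies was 0.526 to 1.25 with a median of 0.858, and 0.535 to 1.03 with a median of 0.800 with length.

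Alas2 was low, and in some libraries its transcript was assembled in pieces or cut short. Scaled abundance was 1.49, 1.79 and 2.15 in vehicle wild types and 2.17, 2.51 and 0.878 in vehicle mutants. Alas2 was at 1.14, 1.16, 1.33, 1.46 and 1.31 in treated wild types and at 1.64, 1.27 and 1.38 in treated mutants. All 3 vehicle wild types lay above all 5 treated wild types, where 6.33% of all genes tested do not overlap. The log2 difference was -0.31 ± 0.18 (SE), with a limma adjusted p of 0.665 by Benjamini-Hochberg and 0.418 to 0.996 over the alternatives. Alas2 was assembled as more than 1 transcript in 5 libraries. Over all libraries its longest transcript covered 36.0% to 90.1% of the annotated length, and that of Hba-a1 covered 62.4% to 75.5%. In vehicle wild type 3, whose summed value was the highest of its group, the longest of 3 pieces covered 36.0% of the annotated length. With abundance times length, that library went from highest to lowest of its group, at 0.417 against 1.30 and 1.52. The drug difference in wild types then was 0.13 ± 0.43. Without vehicle mutant 3, where the transcript covered 52.6% of the annotated length, the difference of vehicle mutants from treated wild types went from 0.29 ± 0.18 to 0.58 ± 0.12 (limma adjusted p = 0.156, Benjamini-Hochberg), the lowest adjusted p of any member under any alternative; over all alternatives of that contrast it ran to 0.903.

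By abundance times length, a measure added after seeing the data, Alas2 varied with the globins from mouse to mouse. By summed abundance the relation was weaker. In all 10 relations were computed over the 14 libraries on log2 values, 5 pairs of genes on each of the measures. With length, Alas2 and Hba-a1 gave Pearson's r = 0.94 (permutation p = 2e-05, adjusted 0.0001) and Spearman's rho = 0.92 (permutation p = 2e-05, adjusted 0.0002). Without the 2 libraries farthest from the Hba-a1 median, vehicle wild type 3 and vehicle mutant 1, r was 0.91. With the group means removed r was 0.94, and without the deepest library it was 0.94. Vehicle wild type 3, vehicle mutant 3 and treated mutant 2 were lowest for Alas2 on this measure, at 0.417, 0.465 and 0.523. They held 31, 44 and 58 implied Alas2 fragments, and r without all of them was not computed. With summed abundance the same pair gave r = 0.51 (permutation p = 0.0635, adjusted 0.0706) and rho = 0.62 (permutation p = 0.0201, adjusted 0.0251). Alas2 and Hbb-bs gave r = 0.72 (permutation p = 0.00515, adjusted 0.00858) and rho = 0.86 (permutation p = 0.00017, adjusted 0.000567) with length, and r = 0.85 without the 2 libraries farthest from the Hbb-bs median. Their r with summed abundance was 0.18 (permutation p = 0.551, adjusted 0.551), with rho = 0.54 (permutation p = 0.0484, adjusted 0.0538).

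The alpha and beta chains also varied together. Hba-a1 and Hbb-bs gave r = 0.73 (permutation p = 0.00193, adjusted 0.00483) and rho = 0.75 (permutation p = 0.00262, adjusted 0.00437) with summed abundance. That relation was weaker without vehicle wild type 3 and vehicle mutant 1, at r = 0.51, and rested in part on them. With length it was r = 0.67 (permutation p = 0.00724, adjusted 0.0103) and 0.39 without those 2 libraries. Hba-a1 and Hba-a2 gave r = 0.65 (permutation p = 0.0122, adjusted 0.0153) and rho = 0.47 (permutation p = 0.095, adjusted 0.095) with summed abundance. Without vehicle wild type 3 and vehicle mutant 1 that r was 0.52. With length r was 0.91 (permutation p = 1e-05, the smallest these permutations can give, adjusted 0.0001). Hbb-bs and Hbb-bt gave r = 0.80 (permutation p = 0.00106, adjusted 0.00353) and, with length, 0.73 (permutation p = 0.00283, adjusted 0.00566). The copies of a pair share reads, so their relations are not independent measurements.

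**Figure D4:**
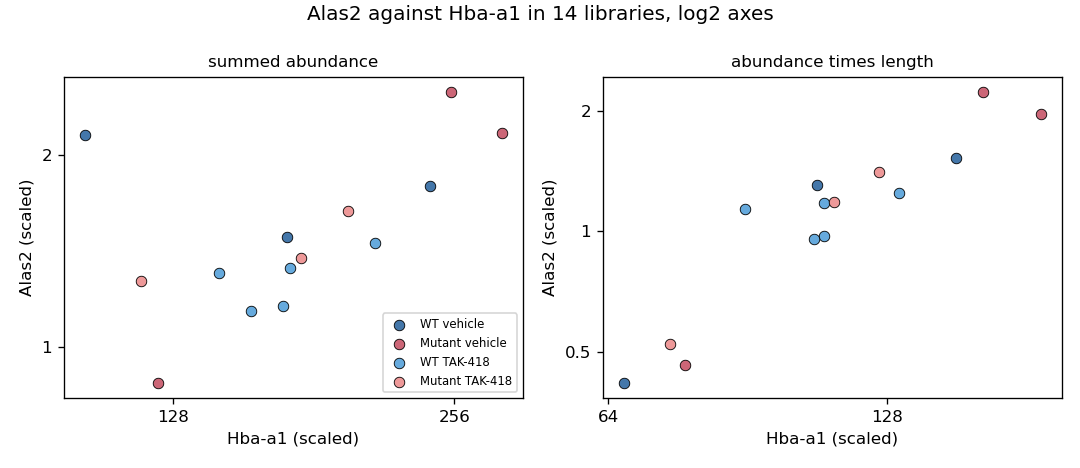
Alas2 against Hba-a1 (scaled values on log2 axes) in the 14 libraries, from summed abundance (left) and from abundance times length (right), coloured by group. On the right, with a measure added after seeing the data, r was 0.94. On the left r was 0.51, and vehicle wild type 3 stands apart at the lowest Hba-a1 (103) and an Alas2 of 2.15.

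Some other transcripts typical of red cells were listed beside the globins and some were not. Of 26 annotated erythroid markers, 12 were in all 14 libraries, 4 in 3 to 13, 5 in only 1 or 2 and 5 in none. The red cell membrane genes Epb42 and Rhag were at 0 in all 14 libraries, and Slc4a1 (the band 3 anion exchanger) was listed in 2. Gata1, Nfe2 and Gfi1b, transcription factors of the red cell lineage, were at 0 throughout, and Klf1 was listed in 2 libraries. In the same list, Tal1 was listed in 7 libraries (median 0.163) and the erythropoietin receptor gene Epor in all 14 (median 3.31). The 12 erythroid markers listed in all libraries included Car2 (a carbonic anhydrase, median 114), a gene that brain cells also express. Of the 16 erythroid markers tested, 0 were called by limma in any contrast.

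Embryonic globin genes were not listed. Hba-x, Hbb-y, Hbb-bh0, Hbb-bh1 and Hbb-bh2 were at 0 in all 14 libraries. The theta globins were low, with medians of 0.977 for Hbq1a and 0.691 for Hbq1b. In treated wild types 4 and 5 and treated mutant 1, Hbq1b was at 0 while its exons lay in a transcript counted as Hba-a2. The Hbq1b median is uncertain for that reason. Cygb (cytoglobin, median 38.2) and Ngb (neuroglobin, median 1.71), globins of other tissues and of neurons, were listed in all libraries.

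No other gene of heme metabolism passed the test. All 8 other genes of heme synthesis were listed in all 14 libraries, and 0 were called by limma with Benjamini-Hochberg adjustment in any contrast. The most abundant by median were Fech (ferrochelatase, 32.3), which inserts iron into the ring, and Alas1 (31.3). Their summed level was 169 to 179 in vehicle wild types, 171 to 180 in vehicle mutants, 160 to 176 in treated wild types and 170 to 178 in treated mutants. The median log2 difference of the list was -0.02 for the drug in wild types, -0.01 for the drug in mutants and -0.01 for genotype under vehicle. None of 7 tested genes for disposal of heme and hemoglobin was called, among them Hmox1 (heme oxygenase 1, median 3.93) and Cd163, the hemoglobin scavenger receptor of macrophages (median 1.48). None of 9 tested iron genes was called, among them Fth1 (ferritin heavy chain, median 2000) and Tfrc (transferrin receptor, median 35.4).

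Other blood and vessel transcripts are given beside the globins, and their part in the globin values was not tested. Summed endothelial markers (14 of 14 listed) were 158 to 201 in vehicle wild types, 169 to 205 in vehicle mutants, 164 to 201 in treated wild types and 165 to 189 in treated mutants. Mural cell markers (8 of 8 listed) summed to 103 to 107, 106 to 114, 96.4 to 112 and 101 to 112 in the same order. Platelet markers (5 of 8 listed; Gp1ba, Gp1bb and Gp6 at 0) summed to 2.75 to 3.70, 2.73 to 3.82, 1.91 to 3.75 and 2.40 to 4.58. Neutrophil markers (7 of 8 listed, Retnlg at 0) summed to 2.11 to 2.96, 3.66 to 5.89, 1.77 to 3.34 and 1.12 to 2.01. In these neutrophil sums vehicle mutants lay above every other group. Of all genes tested, 8.9% separate vehicle mutants from vehicle wild types, 6.24% from treated wild types and 8.18% from treated mutants. S100a8, a neutrophil gene named after its values were seen, had a limma adjusted p of 0.580 (Benjamini-Hochberg) for genotype under vehicle. It was listed in 4 of 14 libraries, at up to 0.718, and Ltf in 3. In that contrast 4 of 5 tested neutrophil genes were higher in vehicle mutants. Mmp9, listed in all 14 libraries, was not, at log2 -0.019 ± 0.28 (SE). For the drug in mutants, the lowest limma adjusted p (Benjamini-Hochberg) of the 5 genes was 0.290, and 0 were higher in treated mutants. For vehicle mutants against treated wild types it was 0.211, and all 5 were higher in vehicle mutants. Lymphocyte markers (5 of 8 listed; Cd3e, Cd3d and Ms4a1 at 0) summed to at most 2.36. The choroid plexus markers were high in vehicle mutant 1, which had the highest globins, and in vehicle wild type 3, which had the lowest.

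The authors' deposited tables compare pooled groups and report the members at 3 loci. One locus (chr11:32283511-32297298) combines Hba-a1, Hba-a2 and Hbq1b, and one (chr7:103812524-103828096) combines Hbb-bs and Hbb-bt. In the authors' deposited table that sets vehicle mutants beside treated wild types, the alpha locus went from 46.5 to 64.8 FPKM (log2 0.48, p = 5e-05, q = 0.00995). The authors' deposited table gave 56.3 and 75.4 FPKM for the beta locus (log2 0.42, p = 5e-05, q = 0.00995). Both were called at q under 0.05, as were 0.611% of 32236 loci tested in the authors' deposited table, 0.434% being higher in vehicle mutants. This p was the smallest in the authors' deposited table, shared by 162 loci. Alas2 went from 0.969 to 1.56 in the authors' deposited table (q = 0.705) and was not called.

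For the same pair of groups, the fit over single mice gave log2 0.51 ± 0.30 (SE) for the summed alpha copies and 0.42 ± 0.36 for the summed beta copies. The limma adjusted p was 0.601 and 0.709 (Benjamini-Hochberg). The log2 differences were close to those of the authors' deposited table, but the levels were not. Before scaling, the mean summed abundance of the libraries was 5.70 to 6.99 times the FPKM of the authors' deposited tables at the alpha locus over the 4 groups, 4.06 to 5.13 times at the beta locus and 1.14 to 1.67 times for Alas2. The globin ranks given here thus hold for assembled abundance only, and the gap between globins and Alas2 is smaller in the authors' deposited tables. The cause was not tested. In single mice, vehicle mutants included the 2 highest mice and one (241 alpha, 232 beta) inside the range of the treated wild types.

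The other authors' deposited tables called no member. Between the vehicle genotypes, the authors' deposited table gave 48.4 to 64.7 FPKM at the alpha locus (log2 0.42, p = 0.00375, q = 0.217) and 63.1 to 75.3 at the beta locus (log2 0.26, q = 1.00), where 0.224% of loci were called. From vehicle wild types to treated mutants, the authors' deposited table gave 48.7 to 43.8 at the alpha locus and 63.5 to 51.0 at the beta locus (log2 -0.32, p = 0.0134, q = 0.476), where 0.324% of loci were called. Between the genotypes on TAK-418, the authors' deposited table gave 46.9 to 43.8 at the alpha locus (q = 0.840) and 56.7 to 50.9 at the beta locus (q = 0.808), where 0.218% were called. Alas2 was 1.11 and 1.56 FPKM in vehicle wild types and vehicle mutants in the authors' deposited table (q = 1.00). Both calls come from 1 pair of groups, and the tables share groups with each other.

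**Figure D5:**
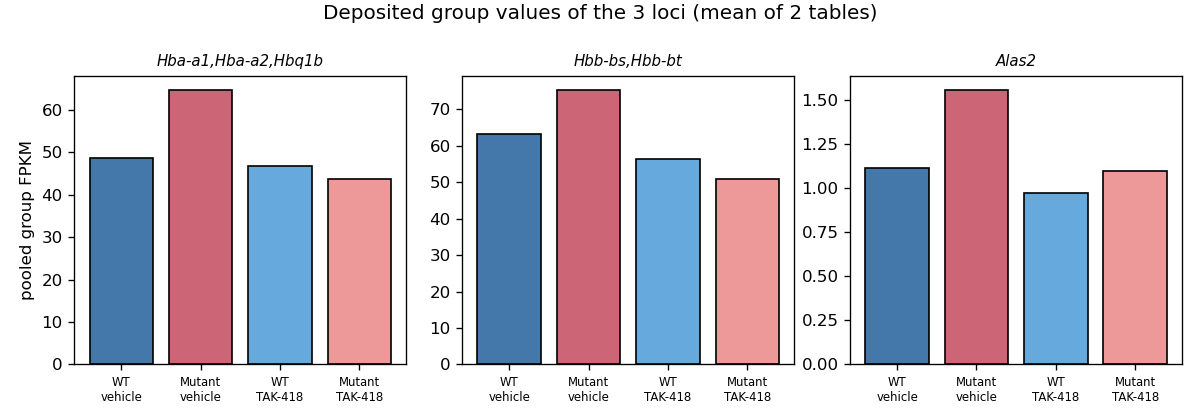
Pooled FPKM (vertical axes, from 0) of the alpha locus, the beta locus and Alas2 in each group, as the mean of the 2 authors' deposited tables that hold the group; there is no error because the authors gave 1 pooled value. The vehicle mutants are highest at each locus, at 64.7 to 64.8 for alpha and 75.3 to 75.4 for beta.

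Genes whose pattern across the 14 libraries most resembled the summed globins are given as a description. Among 16575 other genes, Pearson's r of log2 values was highest for Hras (0.87), Rpl3l (0.85), Cox11 (0.84), Ccdc32 (0.83) and Atp9b (0.83), and the tenth stood at 0.80. With length, Dmrtc1a (0.86) and Ccdc32 (0.85) led, and only Ccdc32, St6galnac6 and Ttc1 were among the first 10 on both measures. For Alas2 the first was Ager (0.89) with summed abundance and Flad1 (0.83) with length, and none of the first 10 was shared. None of these genes was in the fixed lists of red cell, blood or vessel genes.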

How the data were processed

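The authors assembled each of the 14 libraries separately, and the file headers name CLASS 2.1.7; TopHat2 2.1.0 and mm10 are named in the submitters' processing notes. The deposited abundance score of each transcript has no unit named and is taken as an FPKM-like measure; at the globin loci it is several times the FPKM of the authors' deposited tables. The authors' deposited tables hold FPKM per pooled group, log2 fold changes, and p-values and q-values; which test gave them is not given in the sources used here. The order of groups follows the tables' names; changes in the tables correlated with those in the libraries at r = 0.24 to 0.38 in that order over all 4 tables, and in 1 of them a different pair of groups gave a slightly higher r (0.25).

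Transcripts were assigned to GENCODE M21 genes by shared introns, or, for single exons, by at least 50% overlap with exons. Abundances were summed per gene, scaled by the median of ratios, and tested with limma 3.58.1 (R 4.3.3) on log2(value + 0.878), where fold changes of low genes are understated. Genes needed a value in at least 3 libraries. One fit held all 14 libraries with 4 group means. Mice were not said to be littermates or separate batches. The script was tested on simulated data. Measures were also computed with Python 3.11.15 and scipy 1.17.1. Correlations used 100000 permutations. Values carry no counting interval, since depth is only relative. Alternatives covered scaling, pseudocount, filter, transcript choice, assignment, copies, the groups fitted and each library left out; abundance times length and 2 contrasts were added after seeing the data. The named genes are the 5 members, genes of the fixed lists that were called, the 2 most abundant of each list, defining markers at 0, and the 10 genes most like the globins or Alas2; S100a8, Car2, Cd163, Hmox1, Tfrc, Ngb and Alas1 were named after their values were seen where outside that rule. The members and lists were chosen with earlier results of these data known. Values of 3 erythroid marker genes are not reported here.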

Additional observations from a re-analysis of the deposited data

Results flagged for a closer look

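Only the treated wild types had more than 3 mice, so outlying libraries were looked for in that group alone, on 16 values. Chance alone marks about 1 in 20 such groups, and the values screened are not independent. Treated wild type 1 was far below the other 4 mice for Hbb-bs, at a scaled abundance of 58.0, where the next mouse was at 135. With abundance times length it was at 40.7 for Hbb-bs, where the next was at 109. For the summed Hbb copies it was at 174 as deposited and at 115 with length. This library was also the deepest, at a relative depth of 168 M, and held models joining the beta copies and the alpha copies; their part in the result was not tested. With length, treated wild type 4 stood above the other 4 mice for Hbb-bt, at 102 against 78.0 for the next.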

How the results depend on the processing

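No paired analysis was possible because the labels give no replicate numbers shared between groups. No member was called in any contrast under any of the alternatives run, and the lowest adjusted p of a member (limma, Benjamini-Hochberg) was 0.156. The numbers of genes called over all genes were small and moved with the settings; the causes were not tested except where an alternative itself tests other genes or fewer libraries. As reported they were 0 for the drug effect in wild types, 1 for the drug effect in mutants, 0 for genotype under vehicle, 2 for genotype under TAK-418, 1 for the interaction, 2 for the mean drug effect, 4 for treated mutants minus vehicle wild types and 0 for vehicle mutants minus treated wild types. With the smaller pseudocount they were 4 for the drug effect in wild types, 2 for the drug effect in mutants, 1 for genotype under vehicle, 4 for genotype under TAK-418 and 4 for the mean drug effect. With genes listed in any library they were 2 for the drug effect in wild types, 2 for the drug effect in mutants, 1 for genotype under vehicle, 5 for genotype under TAK-418, 2 for the interaction and 1 for vehicle mutants minus treated wild types. With each gene's highest transcript only they were 3 for the drug effect in wild types, 1 for genotype under vehicle, 7 for genotype under TAK-418 and 1 for the mean drug effect. With assignment by exon overlap they were 3 for the drug effect in wild types, 2 for the drug effect in mutants and 5 for genotype under TAK-418. With abundance times length they were 3 for the drug effect in wild types, 4 for the drug effect in mutants, 2 for genotype under vehicle, 2 for the interaction, 10 for the mean drug effect and 8 for vehicle mutants minus treated wild types. With abundance times length and copies summed they were 3 for the drug effect in wild types, 4 for the drug effect in mutants, 2 for genotype under vehicle, 2 for the interaction, 10 for the mean drug effect and 8 for vehicle mutants minus treated wild types. With only the groups compared in the fit they were 7 for the drug effect in wild types, 17 for the drug effect in mutants, 6 for genotype under vehicle, 11 for treated mutants minus vehicle wild types and 7 for vehicle mutants minus treated wild types. Without vehicle mutant 1 and vehicle wild type 3 together they were 1 for the drug effect in wild types, 7 for the drug effect in mutants, 5 for genotype under vehicle, 5 for the interaction, 7 for the mean drug effect, 2 for treated mutants minus vehicle wild types and 5 for vehicle mutants minus treated wild types. With the larger pseudocount they were 2 for the drug effect in mutants and 2 for treated mutants minus vehicle wild types. With genes listed in all libraries they were 0 for the drug effect in mutants, 1 for genotype under TAK-418, 0 for the interaction, 0 for the mean drug effect and 0 for treated mutants minus vehicle wild types. Without scaling they were 1 for genotype under TAK-418, 1 for the mean drug effect and 1 for treated mutants minus vehicle wild types. Leaving out 1 library at a time gave 0 to 2 for the drug effect in wild types, 1 to 8 for the drug effect in mutants, 0 to 6 for genotype under vehicle, 1 to 7 for genotype under TAK-418, 0 to 8 for the interaction, 1 to 7 for the mean drug effect, 1 to 6 for treated mutants minus vehicle wild types and 0 to 8 for vehicle mutants minus treated wild types. Among 40 member differences (5 genes, 8 contrasts), 26 changed sign at least once, all with an adjusted p above 0.05. With near-identical copies summed the log2 differences that changed sign were -0.13 for Hba-a1 in the drug effect in wild types and 0.039 for Hbb-bt in genotype under TAK-418. Without vehicle mutant 1 and vehicle wild type 3 together the log2 differences that changed sign were -0.27 for Hba-a1 in the drug effect in wild types, -0.47 for Hbb-bs in the drug effect in wild types, -0.31 for Hbb-bt in the drug effect in wild types, -0.19 for Hba-a1 in genotype under vehicle, -0.18 for Hba-a2 in genotype under vehicle, -0.12 for Hbb-bs in genotype under vehicle, -0.13 for Hbb-bt in genotype under vehicle, 0.12 for Hba-a1 in the interaction, 0.22 for Hbb-bs in the interaction, 0.13 for Hbb-bt in the interaction, -0.37 for Hbb-bs in treated mutants minus vehicle wild types and -0.32 for Hbb-bt in treated mutants minus vehicle wild types. With abundance times length and copies summed the log2 differences that changed sign were 0.039 for Hba-a2 in the drug effect in wild types, 0.13 for Alas2 in the drug effect in wild types, 0.36 for Alas2 in genotype under vehicle, 0.076 for Hbb-bt in genotype under TAK-418, -0.13 for Alas2 in genotype under TAK-418 and -0.50 for Alas2 in the interaction. With each gene's highest transcript only the log2 differences that changed sign were -0.023 for Hbb-bt in the drug effect in wild types, 0.093 for Alas2 in genotype under vehicle, 0.31 for Hbb-bt in genotype under TAK-418, -0.044 for Alas2 in the interaction and 0.041 for Alas2 in treated mutants minus vehicle wild types. With abundance times length the log2 differences that changed sign were 0.13 for Alas2 in the drug effect in wild types, 0.36 for Alas2 in genotype under vehicle, 0.017 for Hba-a2 in genotype under TAK-418, 0.0090 for Hbb-bt in genotype under TAK-418, -0.13 for Alas2 in genotype under TAK-418, -0.50 for Alas2 in the interaction and 0.0070 for Hba-a2 in treated mutants minus vehicle wild types. With the larger pseudocount the log2 differences that changed sign were 0.0031 for Alas2 in genotype under vehicle. Leaving out 1 library at a time, the differences that changed sign in the drug effect in wild types ran from -0.26 to 0.35 for Hba-a1, -0.47 to 0.46 for Hbb-bs and -0.31 to 0.49 for Hbb-bt. Those in genotype under vehicle ran from -0.21 to 0.27 for Alas2. Those in genotype under TAK-418 ran from -0.22 to 0.14 for Hba-a1, -0.16 to 0.25 for Hbb-bs and -0.18 to 0.28 for Hbb-bt. Those in the interaction ran from -0.91 to 0.024 for Hbb-bs and -0.17 to 0.30 for Alas2. Those in the mean drug effect ran from -0.46 to 0.0094 for Hbb-bs and -0.32 to 0.081 for Hbb-bt. Those in treated mutants minus vehicle wild types ran from -0.34 to 0.27 for Hba-a1, -0.37 to 0.56 for Hbb-bs and -0.31 to 0.49 for Hbb-bt. Depth limits Alas2 most, with as few as 31 implied fragments in a library.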
